A study of Rattus norvegicus with 19 samples.

Results

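The genes of the NMDA receptor subunits were followed through 19 RNA sequencing libraries of rat ventral spinal cord cultures. The table of expression values was searched by symbol, and all 7 subunit genes of the rat were found among its 15597 genes: Grin1 (identifier 24408), Grin2a (24409), Grin2b (24410), Grin2c (24411), Grin2d (24412), Grin3a (191573) and Grin3b (170796). All 7 passed the filter on low values, an FPKM of at least 1 in at least 4 libraries, which kept 11887 genes. FPKM counts sequenced fragments relative to transcript length and to the fragments of the library, so it is a level per length that can be set between genes.

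The cultures came from wild-type Sprague-Dawley embryos at embryonic day 14 and hold neurons together with glia. They were left untreated (control, n = 5), given 100 μM of long-chain synthetic polyphosphate (polyP, n = 5), or given medium conditioned by mouse astrocytes. That medium came from astrocytes expressing human wild-type SOD1 (wtSOD1-ACM, n = 4) or from astrocytes of transgenic mice with the G93A form of human SOD1 (mutSOD1-ACM, n = 5), an allele that causes a familial form of amyotrophic lateral sclerosis. PolyP and media were on the cells for 90 min. The cells measured, being from wild-type embryos, carry no transgene themselves. Astrocytes of non-transgenic littermates are named in the protocol but form no group here. The labels say that each condition was taken from 4 to 5 independent cultures. They give the culture age variously, as 4 days in vitro in the treatment protocol, 7 in the tissue field and 7 to 9 in the growth protocol. The title of the series speaks of transcripts that both polyP and mutSOD1-ACM induce.

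NMDA receptors are glutamate-gated cation channels built from 4 subunits, of which GluN1 (gene Grin1) is obligatory and binds glycine or D-serine. GluN2 subunits (Grin2a to Grin2d) bind glutamate and set the kinetics and the magnesium block of the channel, and GluN3 subunits (Grin3a and Grin3b) bind glycine and lower calcium permeability. In the spinal cord these receptors carry slow excitatory currents in sensory relay neurons, interneurons and motor neurons. Grin2b is a GluN2 gene of the embryonic nervous system, though not the only one, and Grin3b is known for its expression in motor neurons.

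The libraries fell into a pair of sets that cut across treatment and are not groups of the study. Set 1 (11 libraries) holds control, polyP and mutSOD1-ACM replicates 1 to 3 and wtSOD1-ACM replicates 1 and 2, and set 2 (8 libraries) holds the last 2 replicates of each group. The labels name no batch. Mbp, the myelin basic protein gene, stood at 169 to 372 FPKM in set 1 and at 6.54 to 9.62 FPKM in set 2. Genes at an FPKM of 1 or more numbered 11309 to 11723 per library, depth relative to the median library lay between 0.765 and 1.35, and Pearson's r across genes within groups ran from 0.956 to 0.997. Rbfox3 and Snap25, markers of neurons, were present in every library at 27.9 to 43.3 and 79.6 to 131 FPKM. Genes of motor neurons were near the limit of detection, with a summed level of 3.73 to 8.42 FPKM over 7 markers, of which 2 passed the filter.

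Grin1 was the member with the highest level and the only one past the test in the 4-group fit, and it was lower under polyP. The 5 control libraries read 51.73, 48.80, 47.92, 67.65 and 60.79 FPKM and the 5 polyP libraries 29.81, 27.96, 37.05, 36.76 and 34.74 FPKM, so that the highest polyP value lay below the lowest control value. The means were 55.4 ± 8.55 and 33.3 ± 4.15 FPKM (SD, n = 5 each), and the polyP mean was 0.601 of the control mean. On the log2(FPKM + 1) scale, where changes of weakly expressed genes come out too small, Grin1 fell by 0.71 (SE 0.14, 95% interval -1.0 to -0.43, limma adjusted p = 0.000837). Within set 1 the change was -0.64 and within set 2 -0.83. In these bulk cultures, fewer cells of a type and less RNA per cell cannot be told apart.

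With wtSOD1-ACM the 4 libraries read 44.75, 46.60, 60.89 and 62.99 FPKM of Grin1, and with mutSOD1-ACM the 5 read 40.98, 39.84, 47.40, 58.81 and 59.11 FPKM. Both ranges overlap that of the controls and neither overlaps that of polyP. In each of these groups, and in the controls, the 2 highest Grin1 values were those of set 2. In the plot of members by library this shows as open symbols above the filled ones in every group except polyP, whose replicate 3, of set 1, was its highest.

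**Figure D1:**
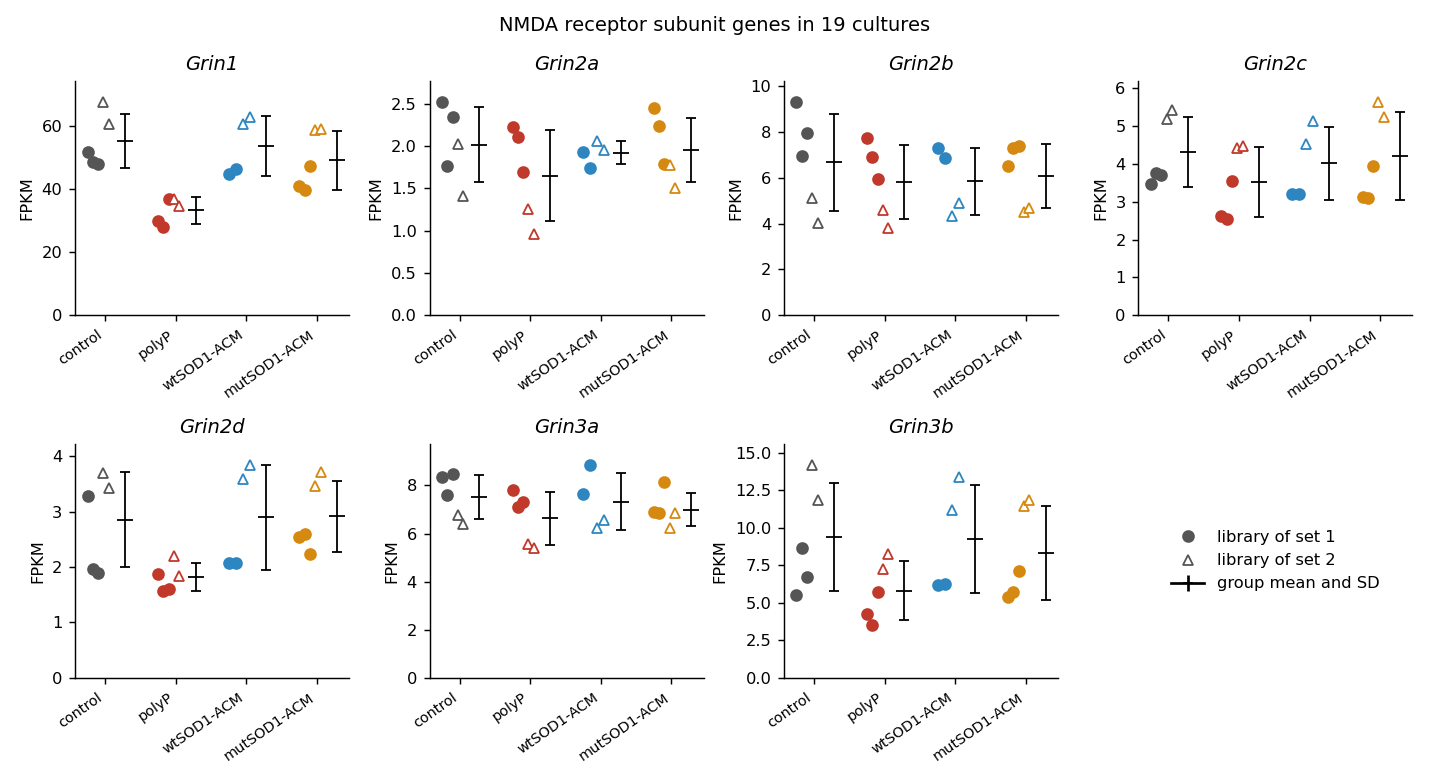
FPKM (y axis, linear, from 0) of each of the 7 NMDA receptor subunit genes in the 19 libraries by group, with filled circles for set 1, open triangles for set 2, and the group mean with its SD as a black bar. For Grin1, the polyP libraries lie between 27.96 and 37.05 FPKM, below every library of the other 3 groups. For Grin2b, Grin2c and Grin3b the sets separate within every group.

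The 300 bases around the annotated start of Grin1 and Grin2d, 250 before and 50 after it, are shown because Grin1 is the member that fell, Grin2d was the next closest to the threshold, and the search below differed between them. RefSeq's table for the assembly GRCr8 holds 4 of the 7 members (Grin1, Grin2c, Grin2d and Grin3a). Capitals mark matches to any of 5 short motifs searched on both strands.
Grin1 (chr3:28528705-28529004, minus strand): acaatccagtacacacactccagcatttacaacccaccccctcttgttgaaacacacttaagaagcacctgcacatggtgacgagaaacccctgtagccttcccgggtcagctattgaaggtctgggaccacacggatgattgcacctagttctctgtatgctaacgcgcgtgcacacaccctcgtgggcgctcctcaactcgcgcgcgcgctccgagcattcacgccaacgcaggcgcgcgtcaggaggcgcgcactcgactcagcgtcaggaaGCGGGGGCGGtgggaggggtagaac
Grin2d (chr1:105481187-105481486, minus strand): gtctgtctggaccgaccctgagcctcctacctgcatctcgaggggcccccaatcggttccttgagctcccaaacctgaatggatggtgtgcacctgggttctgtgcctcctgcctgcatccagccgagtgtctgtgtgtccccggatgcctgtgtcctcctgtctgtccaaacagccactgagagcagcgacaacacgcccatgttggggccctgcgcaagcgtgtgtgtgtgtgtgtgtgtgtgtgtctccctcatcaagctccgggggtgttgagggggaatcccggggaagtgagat
The Grin1 window held GCGGGGGCG, a form of the site bound by early growth response factors, at bases 276 to 284, and the GC box GGGCGG at bases 280 to 285, which overlaps it. Neither these nor GCGTGGGCG, TGACGTCA (cAMP response element) or CACGTG (E-box) had a match in the windows of Grin2c, Grin2d or Grin3a. Of all 33469 RefSeq windows, 2.73% held GCGGGGGCG, 33.1% GGGCGG, 0.544% GCGTGGGCG, 1.83% TGACGTCA and 6.42% CACGTG, and among the 10064 windows of tested genes 5.31% held GCGGGGGCG and 62.5% GGGCGG. The Grin1 window had 25 CpG and 59.7% G or C, against medians of 7 and 51.7% over all windows, while Grin2d had 11 CpG at 60.7%. A match is a string of letters, not a shown binding site.

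Among the GluN2 genes, Grin2b was the highest in the controls on average, at 6.68 ± 2.13 FPKM, followed by Grin2c at 4.32 ± 0.92, Grin2d at 2.85 ± 0.85 and Grin2a at 2.02 ± 0.45 (SD, n = 5). The GluN3 genes stood above all of them, with Grin3b at 9.39 ± 3.59 and Grin3a at 7.52 ± 0.92 FPKM. Ranges of neighbours in this order overlapped in the controls at every step below Grin1. Grin3b exceeded Grin3a in 3 of 5 control libraries, and Grin2b exceeded Grin2c in 3 of 5. In all 4 groups Grin1 was first with no overlap to the next gene, Grin2d and Grin2a held the last 2 places, and under polyP the order of means changed to Grin3a, Grin2b and Grin3b behind Grin1, again with overlapping ranges.

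Grin2d, a subunit known for slow deactivation and weak magnesium block, read 3.28, 1.97, 1.90, 3.70 and 3.42 FPKM in the controls and 1.87, 1.56, 1.61, 2.20 and 1.84 under polyP. The polyP values were the lower ones, but polyP replicate 4 lay above control replicates 2 and 3. Its change was -0.43 (SE 0.17, 95% interval -0.78 to -0.08), and it missed the threshold with a limma adjusted p of 0.0569. Within set 1 the change was -0.31 and within set 2 -0.60.

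Grin3b, a GluN3 subunit, read 5.52, 8.67, 6.71, 14.17 and 11.87 FPKM in the controls and 4.22, 3.55, 5.74, 7.27 and 8.23 under polyP. In each set the polyP libraries lay lower on average (-0.53 in set 1 and -0.68 in set 2), while the ranges overlapped, within set 1 (polyP replicate 3 lay above control replicate 1) and in the pooled values. The pooled change was -0.59 (SE 0.28, 95% interval -1.19 to 0.00, limma adjusted p = 0.122). Its mean went from the second place among the members in the controls to the fourth under polyP, with overlapping ranges.

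Grin2c, best known from cerebellar granule cells and astrocytes, read 3.47, 3.77, 3.71, 5.20 and 5.43 FPKM in the controls and 2.63, 2.55, 3.55, 4.41 and 4.47 under polyP. Each polyP value of a set lay below the control values of that set, except that polyP replicate 3 lay above control replicate 1. The pooled change was -0.24 (SE 0.17, limma adjusted p = 0.308). Grin3a, the GluN3 subunit of the developing forebrain and cord, had a change of -0.16 (SE 0.11, limma adjusted p = 0.268), with 6.39 to 8.48 FPKM in the controls and 5.38 to 7.80 under polyP.

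Grin2a, a GluN2 gene of the mature brain, ran from 1.41 to 2.52 FPKM in the controls and from 0.96 to 2.23 under polyP (change -0.20, SE 0.14, limma adjusted p = 0.288). Grin2b ran from 4.02 to 9.30 FPKM and from 3.82 to 7.75 (change -0.16, SE 0.21, 95% interval -0.60 to 0.28, limma adjusted p = 0.589). For Grin2b the spread between sets was wider than the difference between groups.

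Counted over the members, 1 of 7 passed the test in polyP against control. Of all tested genes 31.8% passed in either direction and 8.77% as lower, so the count of members is near the background. Groups without overlap, polyP below control, were found for Grin1 alone, against 4.31% of all tested genes. All 7 changes were negative, with a median of -0.24 beside 0.04 over all tested genes, and each of the 7 stayed negative under every alternative run. The split of calls over all genes was 2736 higher to 1043 lower and depends on scaling: libraries set to an equal sum of FPKM gave 1404 higher to 1667 lower and moved the median of all genes from 0.04 to -0.06, and median-of-ratios scaling gave 1793 to 1545.

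A second fit took the set into account. With that term 5 of 7 members passed as lower (19.4% of all tested genes passed as lower and 52.1% in either direction in that fit). They were Grin1 (limma adjusted p = 4.75e-06), Grin3b (0.000301), Grin2d (0.00191), Grin2c (0.00917) and Grin3a (0.0346), while Grin2a (0.139) and Grin2b (0.111) did not pass. The changes themselves are those given above, since both sets hold polyP and control libraries in equal parts. No difference of the polyP change between the sets passed for a member (interaction term, limma adjusted p of 0.999 for each, smallest unadjusted p 0.169, Grin2d), and none of the 11887 genes passed in limma, with 537 at an unadjusted p under 0.05.

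**Figure D2:**
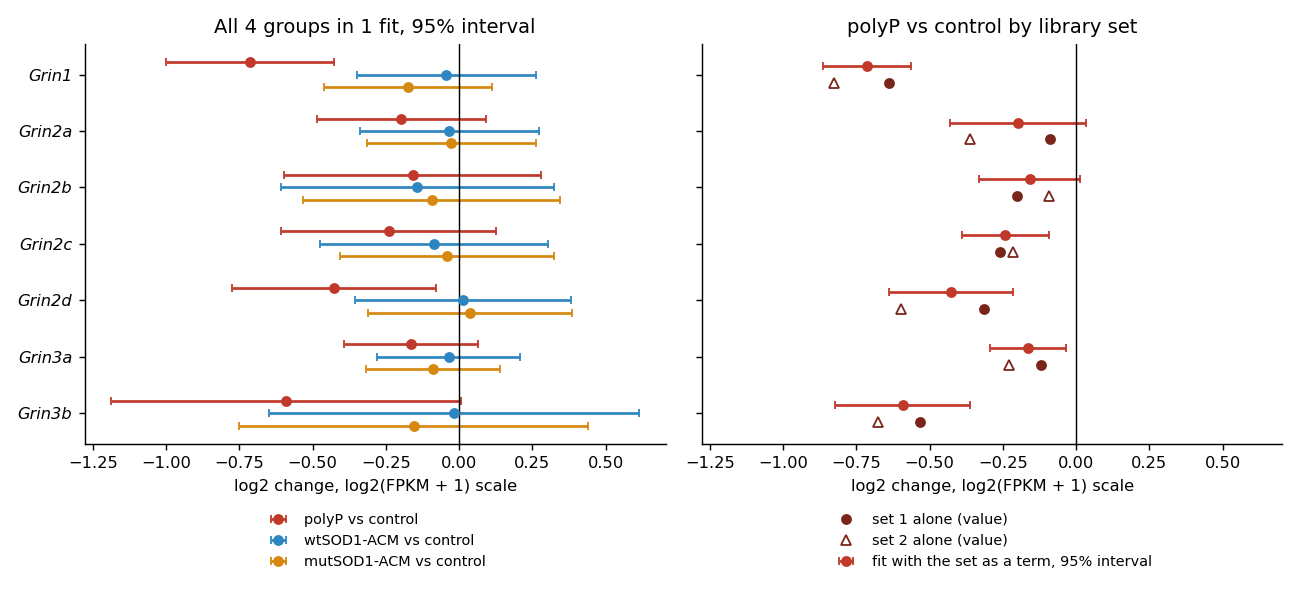
Log2 change on the log2(FPKM + 1) scale (x axis) of each member (y axis). Left, polyP, wtSOD1-ACM and mutSOD1-ACM against control in the 4-group fit with 95% intervals, where only the polyP intervals of Grin1 and Grin2d lie below 0; right, polyP against control with a term for the set, where the intervals of Grin1, Grin2c, Grin2d, Grin3a and Grin3b do, beside the values of set 1 and set 2 alone.

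Markers of cell types were read beside these changes. Summed FPKM of 18 pan-neuronal markers ran from 1907 to 3162 in the controls and from 2624 to 3428 under polyP, with none at 0, and 1 of the 18 (Gap43, a growth cone protein) passed as higher (limma adjusted p = 0.0170) while none passed as lower. Gap43 did not pass with an equal sum of FPKM (adjusted p = 0.0629) or median-of-ratios scaling (0.0525), 1 marker passed as lower with an equal sum and with quantile normalization, and with the set as a term 3 passed as higher, Elavl4 (0.00293), Gap43 (0.0105) and Dcx (0.0248). Of 9 tested markers of inhibitory neurons 2 fell, the glycine transporter Slc6a5 from 36.7 ± 3.09 to 24.7 ± 4.20 FPKM (limma adjusted p = 0.00171) and the vesicular transporter Slc32a1 from 58.9 ± 9.47 to 42.9 ± 3.84 FPKM (0.00313), and the summed level of 10 such markers was 232 to 304 in the controls and 209 to 249 FPKM under polyP. With the set as a term, an equal sum or median-of-ratios scaling 4 of the 9 fell, with quantile normalization 2, and none rose. Microglial markers summed to 53.4 to 603 FPKM in the controls and 58.7 to 190.0 under polyP. Their median log2 change was -0.71 beside 0.04 over all tested genes, but 0 of 11 passed in limma, with 0 at an unadjusted p under 0.05. Astrocyte markers (471 to 735 and 451 to 579 FPKM) had 1 of 10 lower and 2 higher, oligodendrocyte lineage markers (137 to 950 and 234 to 974 FPKM) 1 of 13 lower and 1 higher, and fibroblast, mural and endothelial markers (1215 to 1880 and 1305 to 1795 FPKM) 2 of 8 lower and 1 higher. Whether the inhibitory neuron or glial levels have a part in the change of Grin1 was not tested.

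Relative to the pan-neuronal sum of the same library, Grin1 was lower under polyP too. The log2 ratio was -5.63 ± 0.27 in the controls and -6.51 ± 0.21 under polyP (SD, n = 5 each), a difference of -0.88 with no overlap (exact two-sided permutation p = 0.00794, the smallest this design allows, adjusted p = 0.0397 over 5 comparisons). Against mutSOD1-ACM the difference was -0.61 (exact permutation p = 0.0159, adjusted p = 0.0397). With labels exchanged only within the sets, both had an adjusted p of 0.0833, where the smallest possible unadjusted p is 0.0167. Leaving out 1 library kept both negative, at -0.97 to -0.80 against control and -0.70 to -0.57 against mutSOD1-ACM. The adjusted exact permutation p went to 0.0794 in 4 of 10 exclusions against control (polyP replicate 1, 2, 4 or 5). Against mutSOD1-ACM it did so in 8 of 10 (any but polyP replicate 3 and mutSOD1-ACM replicate 2). With 4 libraries against 5 the smallest possible exact permutation p is 0.0159. A comparison alone at that floor gets an adjusted p of 0.0794 over 5 comparisons. These counts therefore cannot tell which libraries carry the difference. This ratio was added after the data were seen, and its p-values were adjusted apart from the 20 comparisons of shares below. There an exact permutation p of 0.00794 had an adjusted p of 0.159, so the passing here rests on the separate adjustment.

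The make-up of the receptor transcripts was read within each library, where a scaling of the library cancels. Grin1 made up 61.5%, 61.3%, 60.6%, 64.6% and 65.1% of the summed FPKM of the 7 genes in the controls and 52.9%, 54.0%, 58.9%, 59.2% and 58.4% under polyP. Every polyP share lay below every control share, and the means were 62.6 ± 2.09% and 56.7 ± 2.98% (SD, n = 5). The difference of -5.94 points had an exact two-sided permutation p of 0.00794, the smallest possible with 5 against 5, and an adjusted p of 0.159 over the 20 comparisons of shares, which a single such p cannot bring under 0.05. In set 1 and set 2 the difference was -5.87 and -6.05 points.

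Against mutSOD1-ACM, where Grin1 made up 61.5 ± 2.20% of the members, the exact permutation p was 0.0159 and the adjusted p 0.159. No comparison of shares passed after adjustment, that of Grin1 included. Grin3a made up 11.4 ± 2.40% of the members under polyP and 8.71 ± 1.91% in the controls (exact permutation p = 0.0952, adjusted p = 0.381), and Grin2b made up 44.8 ± 8.83% and 41.7 ± 10.7% of the summed GluN2 genes (exact permutation p = 0.579, adjusted p = 0.896). The log2 ratio of Grin1 to summed GluN2 genes was 1.37 ± 0.29 under polyP and 1.80 ± 0.28 in the controls (SD, n = 5; exact permutation p = 0.0635, adjusted p = 0.381). In the 3 comparisons among control and conditioned media, the exact permutation p of the 4 measures ran from 0.286 to 1. With labels exchanged only within the sets, the smallest of these was 0.0333, for the Grin1 share in mutSOD1-ACM against control (-1.13 points in set 1 and -1.09 in set 2, adjusted p = 0.111). In polyP against control that permutation gave 0.0167, the smallest possible, for both the Grin1 and the Grin3a share (adjusted p = 0.0833 each). None passed.

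The GluN2 make-up separated the sets within every group. Grin2b lay between 5.97 and 9.30 FPKM in set 1 and between 3.82 and 5.11 in set 2, and Grin2c between 2.55 and 3.94 in set 1 and between 4.41 and 5.63 in set 2, so that neither overlapped. As a share of the GluN2 genes, Grin2b was 49.2 ± 2.60% in set 1 (SD, n = 11) and 31.5 ± 2.85% in set 2 (n = 8), and Grin2c was 22.3 ± 3.15% and 35.1 ± 3.11%. Grin2b was thus the leading GluN2 gene of set 1, and Grin2c had the higher mean share in set 2. The sets were found by clustering the same libraries, so these values describe them and carry no test. Without overlap between the sets were 13.5% of all tested genes, 5.51% higher in set 1 and 7.98% lower.

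**Figure D3:**
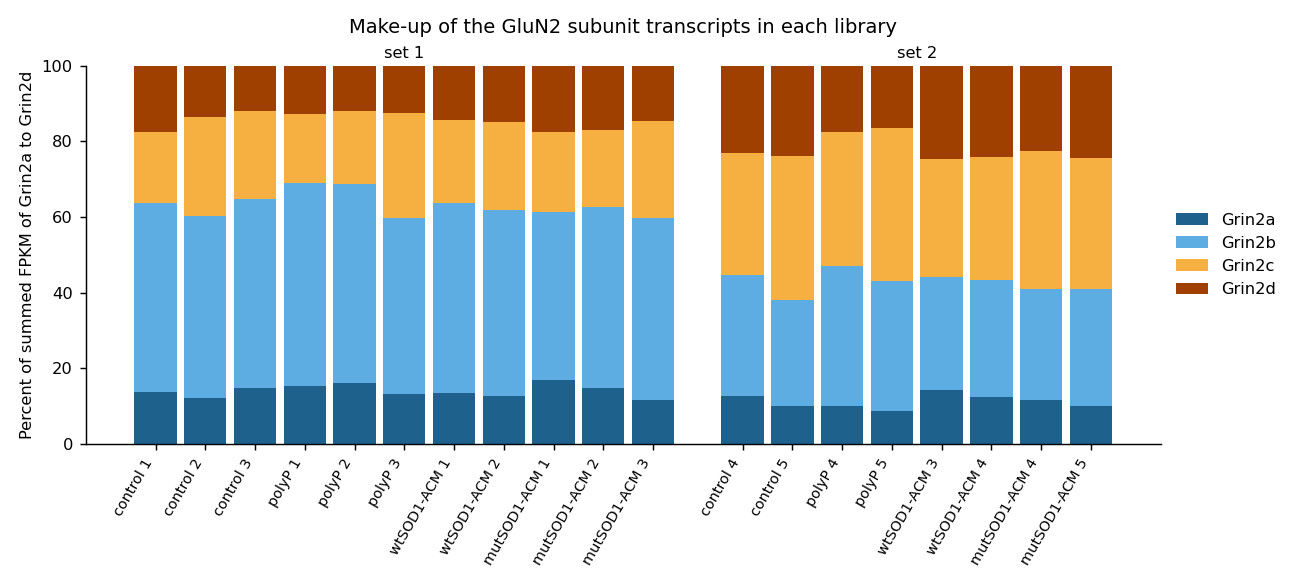
Percent of the summed FPKM of Grin2a to Grin2d (y axis, 0 to 100) taken by each of the 4 genes in each library (x axis, group and replicate), with set 1 on the left and set 2 on the right. Grin2b takes 44.4% to 53.5% in set 1 and 28.2% to 36.8% in set 2, and Grin2c 18.2% to 27.7% and 31.2% to 40.3%.

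The GluN3 genes differed between the sets as well. Grin3b averaged 5.91 ± 1.37 FPKM in set 1 and 11.2 ± 2.35 in set 2, and Grin3a 7.73 ± 0.66 and 6.25 ± 0.54 FPKM. Within every group the Grin3b values of set 1 lay below those of set 2, though the pooled ranges overlapped. Grin3b was 33.3% to 53.3% of the pair in set 1 and 56.7% to 67.6% in set 2. Grin1 averaged 42.1 ± 7.81 and 55.2 ± 12.3 FPKM, Grin2d 2.16 ± 0.50 and 3.22 ± 0.76, and Grin2a 2.08 ± 0.30 and 1.62 ± 0.40, each with overlapping ranges. Between the sets, 14 markers of the oligodendrocyte lineage summed to 543 to 974 FPKM in set 1 and 136 to 236 in set 2, microglial markers to 81.3 to 603 and 48.5 to 65.4, pan-neuronal markers to 1907 to 3162 and 2839 to 3428, and 7 motor neuron markers to 3.73 to 5.03 and 6.35 to 8.42. Their part in the make-up of the receptor genes was not tested.

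The direct comparison of polyP with mutSOD1-ACM asks whether these exposures left the receptor genes at different levels. Grin1 was lower under polyP with no overlap, by -0.54 on the log2 scale (SE 0.14, 95% interval -0.83 to -0.25, limma adjusted p = 0.0115), the only member of 7 to pass. Of all tested genes 19.7% passed in either direction and 4.90% as lower, and 3.92% had polyP values all below mutSOD1-ACM values. Grin2d also had no overlap, with 2.55, 2.60, 2.24, 3.47 and 3.71 FPKM under mutSOD1-ACM against 1.56 to 2.20 under polyP, and missed the threshold (change -0.46, limma adjusted p = 0.0568). Within the sets the Grin1 change was -0.43 in set 1, where a fit of that set alone did not call it (limma adjusted p = 0.0705), and -0.71 in set 2.

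Same-numbered libraries of polyP and mutSOD1-ACM deviated alike from their group means across all genes. They also share their sets, so this does not show pairing. With the replicate number as a block 4 of 7 members passed as lower, beside 10.1% of all tested genes. They were Grin1 (limma adjusted p = 0.000392), Grin2d (-0.46, 0.0111), Grin3b (-0.44, 0.0114) and Grin2c (-0.20, 0.0285). With the set as a term the same 4 members passed, beside 10.8% of all tested genes. PolyP against control and polyP against mutSOD1-ACM share the polyP libraries, so the second count is not independent of the first.

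No subunit gene passed the test in a comparison of conditioned media. In wtSOD1-ACM against control 0 of 7 members passed (0.631% of all tested genes did), in mutSOD1-ACM against control 0 of 7 (0.0168%), and in mutSOD1-ACM against wtSOD1-ACM 0 of 7 (0.471%), and in this 4-group fit no member had an unadjusted limma p under 0.05 in any of them. The Grin1 difference from control was -0.04 with wtSOD1-ACM (95% interval -0.35 to 0.26) and -0.17 with mutSOD1-ACM (-0.46 to 0.11). With the set as a term the mutSOD1-ACM interval for Grin1 was -0.32 to -0.02, which leaves out 0, while the difference missed the threshold over all genes (limma adjusted p = 0.538). It was the only member under an unadjusted p of 0.05 in these comparisons in that fit, and 0 of 7 passed in each. Over the members of the 4-group fit, differences ran from -0.14 to 0.01, from -0.17 to 0.04, and from -0.14 to 0.05 in these 3 comparisons. The intervals allow larger differences, from -0.65 to 0.61 and from -0.75 to 0.44 at their widest against control, both for Grin3b.

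The partners of the receptor were read from gene lists for polyP against control. Of the other ionotropic glutamate receptor genes (AMPA, kainate and delta types) 3 of 11 fell and none rose, with Gria2, which keeps AMPA receptors impermeable to calcium, going from 39.8 ± 5.27 to 28.8 ± 3.92 FPKM (-0.45, limma adjusted p = 0.00701). Gria3 changed by -0.48 (0.0162) and the kainate receptor gene Grik2 by -0.30 (0.00194). Of 8 metabotropic glutamate receptor genes 2 fell, among them Grm2, which stood near 1 FPKM (-0.26, limma adjusted p = 0.0460), and none of the 8 passed under quantile normalization. The list medians were -0.21 and -0.22 beside 0.04 over all tested genes, of which 8.77% fell and 23% rose.

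Of 31 genes of the postsynaptic scaffold and receptor complex 5 fell and none rose in the 4-group fit. With the set as a term 10 fell and 5 rose, beside 19.4% of all tested genes lower and 52.1% in either direction. Shank2, a scaffold below PSD-95, went from 15.1 ± 1.16 to 12.3 ± 1.17 FPKM (-0.27, limma adjusted p = 0.0208), and Ephb2, a receptor tyrosine kinase that binds the NMDA receptor, from 42.4 ± 4.45 to 35.9 ± 2.61 FPKM (-0.23, 0.0224). Dlg4, the gene of PSD-95 that anchors GluN2 tails, did not pass, at 92.7 ± 10.2 and 89.4 ± 8.51 FPKM (limma adjusted p = 0.691). The list median was -0.01.

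Among 30 signalling genes downstream of the receptor 3 fell and 7 rose, near the background of 8.77% lower and 23% higher. The split turned to 6 lower and 1 higher with libraries set to an equal sum. Rasgrf1, a calcium-activated Ras exchange factor that binds GluN2B, went from 4.35 ± 0.56 to 2.99 ± 0.70 FPKM (-0.43, limma adjusted p = 0.00825) and Trpm2, a calcium-permeable channel, from 4.67 ± 0.86 to 2.79 ± 0.52 (-0.58, 0.00484). Ppp3r1, the regulatory subunit of calcineurin, rose from 80.4 ± 11.7 to 100.8 ± 4.06 FPKM (0.33, 0.00533), and Csnk2a1, a casein kinase 2 subunit, rose by 0.31 (0.00762) in the 4-group fit but not with an equal sum (0.0826). Camk2a, the kinase that docks on GluN2B, stood at 10.2 ± 0.25 and 9.69 ± 0.95 FPKM and did not pass (limma adjusted p = 0.363). Dlg4 and Camk2a were added to the named genes after their values were seen.

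Genes of glutamate, glycine and D-serine handling, transporters included, went in both directions, with 4 of 19 lower and 5 higher. Of all tested genes 8.77% were lower and 23% higher. The enzymes of serine synthesis Psat1 (68.0 ± 11.4 to 114 ± 14.5 FPKM), Psph (12.9 ± 1.04 to 17.8 ± 0.81) and Phgdh (107 ± 10.3 to 139 ± 7.16), which feed D-serine and glycine, rose by 0.74, 0.44 and 0.38 (limma adjusted p = 0.000372, 0.000326 and 0.00125). The glycine transporter Slc6a5, named above, fell by 0.56. Activity-regulated genes had 8 of 20 lower and none higher, among them Ptgs2 (inducible cyclooxygenase, -1.54), the zinc-finger factors Egr1 (-1.45) and Egr2 (-1.33) and the granin Vgf (-0.88), with limma adjusted p from 8.49e-07 to 4.26e-05. Fos, outside the naming rule, read 123 ± 31.5 and 121 ± 36.1 FPKM and did not pass (limma adjusted p = 0.920). Of 15 regulators known to act on subunit genes, Egr1 and Mef2d (-0.17, 0.0134) fell, and Nrf1 (0.20, 0.00795), Sin3a (0.16, 0.0281) and Sp1 (0.21, 0.0284, outside the naming rule) rose, but none of the 3 rises passed with an equal sum. This count is near the background of 31.8% of all tested genes in either direction.

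**Figure D4:**
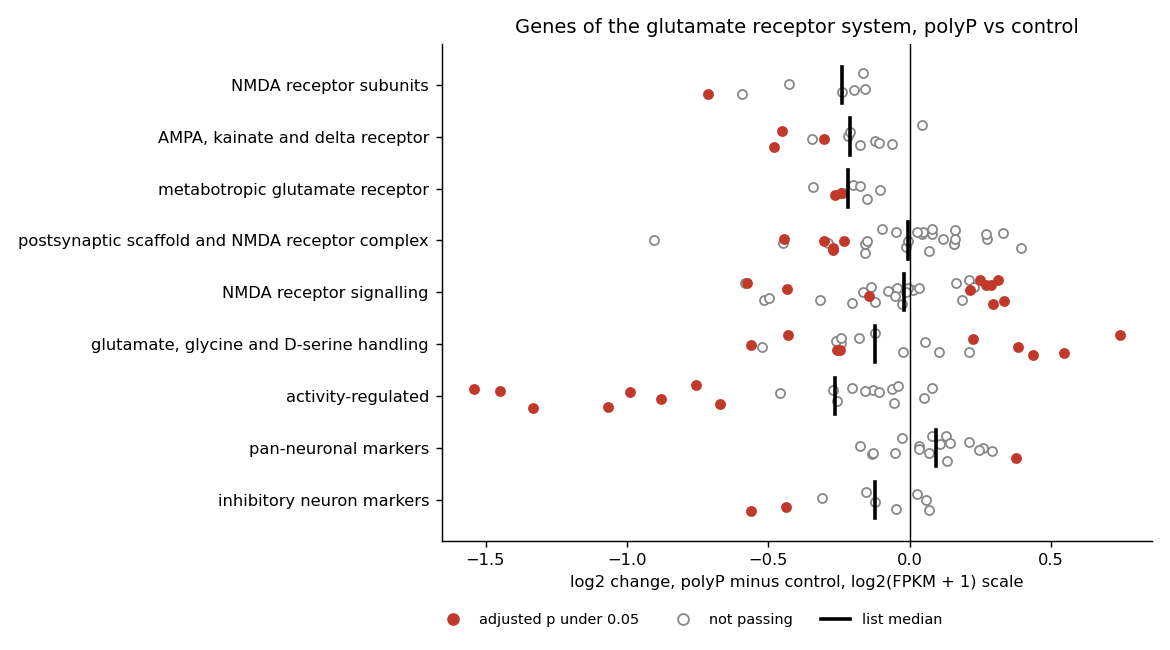
Log2 change of polyP minus control on the log2(FPKM + 1) scale (x axis) of the members and of the tested genes of 8 lists (y axis), filled where the limma adjusted p is under 0.05 and open otherwise, with the list median as a bar. The medians of NMDA receptor, AMPA, kainate and delta receptor, metabotropic receptor and activity-regulated genes lie between -0.27 and -0.21, and that of the pan-neuronal markers at 0.09, which turned to -0.02 with an equal sum of FPKM and to -0.04 with quantile normalization.

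Genes whose levels tracked each member over the 19 libraries were ranked by Pearson's r of log2(FPKM + 1), as a description of libraries that share sets, depth and treatments. Closest to Grin1 were Slc12a5, the neuronal chloride exporter KCC2 (r = 0.980), the calcium channel subunits Cacna2d2 (0.980) and Cacna2d3 (0.976), the adenylyl cyclase Adcy5 (0.978) and the phosphatase Ptpru (0.975). Slc12a5 averaged 49.6 ± 10.7 FPKM in the controls and 29.1 ± 2.44 under polyP. With the mean of each set subtracted, the closest were Cbarp (0.993), a calcium channel regulator, Sez6l2 (0.979), Adcy5 (0.978), the postsynaptic scaffold Shank1 (0.975) and Slc12a5 (0.975).

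Closest to Grin2b were the metabotropic receptors Grm3 (r = 0.976) and Grm5 (0.976), Adcy1 (0.974), the glial glutamate transporter Slc1a2 (0.966) and Mgat5 (0.964). Each of these averaged more in set 1 than in set 2, as Grin2b did (Slc1a2 26.2 and 12.3 FPKM). With set means subtracted the highest r for Grin2b was 0.862, with the presynaptic scaffold Bsn, followed by Grm3 (0.841), Grm5 (0.836), the potassium channel Kcnh1 (0.835) and Adcy1 (0.827). Much of the likeness around Grin2b thus lay between the sets.

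The nearest to Grin2c were Cc2d1a (r = 0.978), Armc5 (0.978), Ybx2 (0.973), Ppp1r37 (0.973) and Mier2 (0.972), and to Grin3b Gmip (0.987), the potassium channels Kcng4 (0.987) and Kcnj14 (0.985), Rnf123 (0.986) and Vars2 (0.986). Grin2d went with Ecel1 (0.972), Prrt4 (0.971), Gpr153 (0.968), Gpr162 (0.965) and Nectin1 (0.964). Grin3a went with Acaca (0.954), the postsynaptic adhesion molecule Nlgn1 (0.927), Pgap1 (0.923), Cadm2 (0.919) and Kcnma1 (0.919). Grin2a, the lowest member, had the weakest neighbours, among them Sema3d (0.812), Plxna2 (0.803), Col1a1 (0.798) and Tmem178b (0.796).

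Among the members, Grin2c and Grin3b were the most alike over the 19 libraries (r = 0.946), then Grin1 and Grin3b (0.862), Grin2b and Grin3a (0.854) and Grin1 and Grin2d (0.852). Grin2b ran against Grin2c (-0.780) and Grin3b (-0.713). After subtraction of the set means Grin1 and Grin3b stood at 0.892, Grin2c and Grin3b at 0.823, and Grin2b with Grin2c and Grin3b at 0.134 and 0.177, so the opposed course of Grin2b was found between the sets and not within them.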

How the data were processed

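The deposited table gives FPKM per gene and library with 2 decimals, per the file headers. Reads were aligned with HISAT to rn6, per the submitters' processing notes, from poly(A)-enriched libraries, per the labels' protocols. The aligner's version, the FPKM tool and the annotation were not given in the sources used here. Members (all 7), the gene lists, the naming rule (all members, per list the up to 4 genes with the smallest p, the 5 nearest genes by Pearson's r, and markers) and the tests were chosen with earlier results of these data known. Counts were not used. Low values came out as whole multiples of a unit in 94.2% of 1017 values of 203 genes (within 0.1 of a whole read), which gives relative depth only. The units and depths were fitted to these same values, so the percentage is no separate check of them.

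Tests used limma 3.58.1 with statmod 1.5.0 in R 4.3.3 on log2(FPKM + 1), with 4 group means, a trended and robust empirical Bayes step, two-sided p-values and Benjamini-Hochberg adjustment over 11887 genes at a threshold of 0.05, and were tested on simulated data. Shares were compared by exact permutation in Python 3.11.15 with scipy 1.17.1. Each library was taken as 1 culture because the labels say so. If this is wrong, p-values measure technical spread only. Same-numbered libraries were compared by the correlation of deviations from group means. It was 0.688 to 0.764 over the 5 pairs of polyP and mutSOD1-ACM, and each other comparison held a lower pair. Libraries of different numbers were not compared. Same-numbered polyP and mutSOD1-ACM libraries also share the set and, within set 1, a high or a lower Mbp level, so this check cannot show pairing. Sets came from clustering of the libraries after the data were seen, and the reference tables (RefSeq, GRCr8) served for names and promoter windows. Protein sequences and gene lengths were not used here, and some genes that the naming rule selects are not reported here. Alternatives covered pseudocount, low-value filter, scaling, moderation, groups in the fit, replicate block, set and single libraries.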

Additional observations from a re-analysis of the deposited data

How the results depend on the processing

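Grin1 in polyP against control stayed lower and past the threshold in all 25 alternatives (-0.87 to -0.64, limma adjusted p 1.64e-06 to 0.00888), and in polyP against mutSOD1-ACM in 23 of 24, the exception being set 1 alone (adjusted p = 0.0705). The number of members passing in polyP against control, 1 in the 4-group fit, was 2 with an equal summed FPKM, with median-of-ratios scaling and without the high-Mbp libraries of set 1 (control replicates 2 and 3, polyP replicate 3), 4 with the replicate block and in set 2 alone, 5 with the library set as a term, and 6 with a term for 3 library classes. The calls over all genes moved as well. Of 11887 tested genes, 1043 passed as lower in the 4-group fit. This was 2138 with the block, 2144 in set 2 alone, 2308 with the set term and 2510 with the class term. It was 1667 with an equal sum, 1545 with median-of-ratios scaling and 944 without the high-Mbp libraries. The class term and the high-Mbp exclusion were added after seeing the data. Leaving out 1 library gave 1 to 2 members, with Grin2d joining without control replicate 2 or 3. In polyP against mutSOD1-ACM the number was 0 in set 1 alone, 2 with a pseudocount of 0.1, either of those scalings or only the 2 groups fitted, 3 in set 2 alone, and 4 with the replicate block, the set term or the class term. Over all genes of this comparison, 582 passed as lower in the 4-group fit and 56 in set 1 alone. The count was 586 with the pseudocount of 0.1, 746 and 732 with the equal sum and median-of-ratios scalings, and 596 with only the 2 groups. It was 1836 in set 2 alone, 1205 with the block, 1289 with the set term and 1956 with the class term. The cause was not tested. Signs turned for Grin3a in polyP against mutSOD1-ACM in set 1 alone (0.0224) and, with 1 library left out, for Grin2b in the same comparison (-0.164 to 0.0507), Grin1 in wtSOD1-ACM against control (-0.124 to 0.0371), the Grin1 share in wtSOD1-ACM against control (-0.43 to 1.04 points) and the Grin2b share in polyP against control (-0.23 to 5.74 points), none of which had passed. The Grin1 share stayed lower under polyP than in the controls (-6.58 to -5.00) and than under mutSOD1-ACM (-5.49 to -3.89) with any 1 library left out. In polyP against control the same-numbered libraries did not all deviate alike (a deviation correlation of 0.0681 for replicate 2). In the conditioned media comparisons the replicate block changed no count of members, which was 0 of 7, though single members went under an unadjusted limma p of 0.05: with the block Grin1 in mutSOD1-ACM against control (adjusted p = 0.596) and against wtSOD1-ACM (0.288) and Grin2b in wtSOD1-ACM against control (0.546), and with the class term Grin1 in mutSOD1-ACM against control (0.588) and Grin2c in wtSOD1-ACM against control (0.184) and in mutSOD1-ACM against wtSOD1-ACM (0.332). In wtSOD1-ACM replicate 3 is a library of set 2, while replicate 3 of each other group is of set 1. The block therefore cannot separate treatment from set in comparisons with wtSOD1-ACM. Grin2b in wtSOD1-ACM against control changed by -0.25 with the block and by -0.08 with the set as a term. Grin1 in mutSOD1-ACM against wtSOD1-ACM changed by -0.17 and -0.09. FPKM carry no counts, so the counting error of the lowest genes, Grin2a and Grin2d, is not known.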

Other observations

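Against mutSOD1-ACM, the genes around the receptor followed the count of members only in part. Under polyP 9 of 20 activity-regulated genes were lower and none higher (list median -0.36 beside 0.04 over all tested genes, of which 4.90% passed as lower). None of 11 AMPA, kainate and delta receptor genes and none of 8 metabotropic receptor genes passed in limma (medians -0.15 and -0.16, with 1 gene each at an unadjusted p under 0.05), and 1 of 31 scaffold genes was lower. Of 19 genes of glutamate, glycine and D-serine handling 2 were lower and 4 higher, and of 9 inhibitory neuron markers 2 were lower. In mutSOD1-ACM against control, no gene of these lists passed in limma, and at an unadjusted p under 0.05 stood 1 of the activity-regulated genes, 1 of the AMPA, kainate and delta receptor genes and 1 of the inhibitory neuron markers.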
